A study of Mus musculus with 7 samples.

Results

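The Ifng and Il22 locus of mouse chromosome 10 was described in 7 ATAC-seq libraries of CD4+ T cells. In this assay a transposase cuts DNA and adds adapters where chromatin is open, and the number of insertions in a region is a measure of how accessible it is. All regions of the deposited table that overlap the stretch from 118.15 to 118.6 Mb of GRCm38/mm10 were taken, which gave 53 of the 113820 regions, 52 of them wholly inside. The cells came from C57BL/6 reporter mice 8 days after subcutaneous infection with 500 L3 larvae of Nippostrongylus brasiliensis, a roundworm that passes through the lung, and 50000 cells were used per library. The LN IL-4+ population (2 libraries) was made of GFP+ cells of the mediastinal lymph node of IL-4-4get mice, the lung IL-4+ population (3 libraries) of GFP+ cells of the lung of such mice, and the lung IFNγ+ population (2 libraries) of YFP+ cells of the lung of IFN-gamma-Great mice. In 4get mice GFP is made from the Il4 gene and in GREAT mice YFP from the Ifng gene itself, so the IFNγ+ cells were sorted on the output of the locus described here and carry a reporter in it that the IL-4+ cells lack. Population and reporter line therefore cannot be told apart. The mice's ages are not given in the sources used here, nor is it said whether equal replicate numbers mark 1 mouse, and p-values measure the spread between these libraries.

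Ifng encodes interferon gamma, the defining cytokine of type 1 responses, which activates macrophages and is made mainly by Th1 cells, CD8+ T cells and NK cells. The gene is surrounded by conserved non-coding sequences (CNS), named by their distance in kb from its start, that act as enhancers or boundaries and bind factors such as T-bet, a T-box factor, and Runx proteins. Il22 encodes interleukin 22, a cytokine of the IL-10 family that acts on epithelial cells and is made by Th17 and Th22 cells and innate lymphoid cells. Type 2 responses to worms are led instead by Th2 cells with IL-4, IL-5 and IL-13, and in Th2 cells the Ifng gene is usually silent. In bulk samples such as these, fewer cells with an open region and less opening per cell cannot be told apart.

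In GENCODE annotation Ifng runs from 118441046 to 118445892 on chromosome 10 and Il22 from 118204942 to 118210047, with their starts 236.1 kb apart. Iltifb, a second copy of Il22 in this strain, lies between them (118289629 to 118295038), and the long non-coding RNA gene Ifngas1, also called NeST, lies beyond Ifng (118502035 to 118556525). The 53 regions were between 401 and 1816 bp long, with a median of 487 bp, and covered 32634 bp of the 450 kb. Regions within 75 kb of Ifng, called the Ifng domain here, numbered 34, of which 11 lay upstream, 7 at the start and body of the gene and 16 downstream. A further 11 lay beyond the domain, mostly in introns of Ifngas1, and 6 lay at the other end of the window near Mdm1. Of the 9 CNS distances searched, 8 had a region centred within 2 kb of them and the one at -54 kb had none. They were matched by distance alone.

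The sequences below are from the regions on which the results turn, read from the + strand of GRCm38. They are the 250 bases before the Ifng start from RefSeq (GRCm38.p6), the central 201 bases of CNS-22, which was open in every library, the central 201 bases of 5 regions that differed between populations, and those of the region nearest to Il22. Capitals mark every match, on either strand, to 9 short motifs: AGGTGT for T-box factors, ACCACA for Runx, AGATAA for GATA factors, TGANTCA for AP-1, GGAAAA for NFAT, TTCNNNGAA for STAT, GGAAGT for ETS, GCGTG for AHR and AGGNGGC for CTCF. Matches to different motifs did not overlap in the sequences shown.
Ifng promoter, chr10:118440796-118441045: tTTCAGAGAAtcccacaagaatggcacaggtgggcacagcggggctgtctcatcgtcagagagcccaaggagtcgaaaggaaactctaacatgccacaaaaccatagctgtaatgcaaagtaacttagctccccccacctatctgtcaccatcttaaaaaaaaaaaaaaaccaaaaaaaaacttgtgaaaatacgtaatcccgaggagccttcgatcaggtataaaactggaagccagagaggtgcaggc
CNS-34, chr10:118406994-118407194: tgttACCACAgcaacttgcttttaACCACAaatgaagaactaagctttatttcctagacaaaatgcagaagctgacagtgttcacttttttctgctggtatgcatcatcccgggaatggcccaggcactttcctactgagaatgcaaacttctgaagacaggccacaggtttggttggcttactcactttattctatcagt
CNS-22, chr10:118419081-118419281: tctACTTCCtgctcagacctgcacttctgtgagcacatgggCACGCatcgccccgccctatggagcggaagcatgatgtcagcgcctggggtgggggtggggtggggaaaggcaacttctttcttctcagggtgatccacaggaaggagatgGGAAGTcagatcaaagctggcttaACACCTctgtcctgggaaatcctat
CNS-6, chr10:118435497-118435697: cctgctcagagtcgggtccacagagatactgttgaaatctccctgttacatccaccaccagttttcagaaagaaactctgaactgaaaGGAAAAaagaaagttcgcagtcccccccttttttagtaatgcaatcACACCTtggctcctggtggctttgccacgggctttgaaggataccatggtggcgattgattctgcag
+28.1 kb, chr10:118469053-118469253: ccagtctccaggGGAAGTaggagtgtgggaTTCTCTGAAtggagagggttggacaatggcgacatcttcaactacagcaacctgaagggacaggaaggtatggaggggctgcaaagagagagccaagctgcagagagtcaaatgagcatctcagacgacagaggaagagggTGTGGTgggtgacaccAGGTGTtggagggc
CNS+46, chr10:118486811-118487011: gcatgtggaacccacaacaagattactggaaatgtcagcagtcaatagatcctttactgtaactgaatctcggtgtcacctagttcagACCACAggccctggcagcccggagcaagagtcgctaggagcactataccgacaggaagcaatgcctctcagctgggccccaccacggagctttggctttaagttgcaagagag
+109.4 kb, in an Ifngas1 intron, chr10:118550317-118550517: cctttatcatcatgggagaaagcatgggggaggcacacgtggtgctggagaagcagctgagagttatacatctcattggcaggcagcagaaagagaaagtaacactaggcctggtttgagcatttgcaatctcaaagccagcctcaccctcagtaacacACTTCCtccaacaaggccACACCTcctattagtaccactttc
-245.8 kb, upstream of Il22, chr10:118195183-118195383: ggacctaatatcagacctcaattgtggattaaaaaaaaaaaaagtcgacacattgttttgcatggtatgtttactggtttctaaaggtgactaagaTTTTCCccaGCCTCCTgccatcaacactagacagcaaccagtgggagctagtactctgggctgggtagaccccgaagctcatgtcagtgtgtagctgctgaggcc

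The Ifng promoter held 1 match, to the STAT letters at its bases 2 to 10 (TTCAGAGAA), and none to the T-box or Runx letters. The promoter windows of RefSeq held a STAT match in 8.3% of 32851 cases. T-box letters occurred in CNS-22, CNS-6 and the regions at +28.1 and +109.4 kb, and in 12.3% of the central windows of all 113820 regions. Runx letters occurred at 2 places in CNS-34 and at 1 each in CNS+46 and the +28.1 kb region, and in 20.4% of all regions. Over the 10 regions of the locus that passed the test in any comparison, 3 held T-box letters, 4 Runx, 3 ETS, 2 AP-1, 2 NFAT, 1 STAT and 1 CTCF letters, and 0 held GATA or AHR letters. Over all 53 regions the shares were 17.0% for T-box, 26.4% for Runx, 18.9% for AP-1 (9.6% of all regions), 15.1% for GATA (10.4%), 24.5% for NFAT (16%), 24.5% for ETS (17.7%), 5.7% for STAT (6.2%), 11.3% for CTCF (16.3%) and 3.8% for AHR (14.7%). A match describes the letters and is not a bound site.

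Levels are given below as log2 density, the log2 of normalized insertions per kb of region, scaled to the library total, and a density of at least 5 was counted as accessible. By lower bounds rebuilt from tied values the libraries held between 14005923 and 91681969 insertions in all regions and between 3431 and 34661 in the 53 regions of the window. The libraries fell into 2 classes by the spread of insertions over all regions, with an interquartile range of 1.64 to 1.73 on the log2 scale in replicates 2 and 3 of lung IL-4+ and replicate 1 of LN IL-4+ cells (narrow) and of 2.87 to 3.05 in the other 4 (wide). Both IFNγ+ libraries were wide, so the values within the wide class are given for the regions of the window that passed in comparisons with them and for the sums of the Ifng domain. All 7 T cell marker genes had a start-site region that was accessible in every population, with a summed density of 108.7 to 148.9 in LN IL-4+, 91.8 to 145.5 in lung IL-4+ and 91.8 to 92.6 in lung IFNγ+ libraries. None of 4 B cell genes had a start-site region, and of 3 NK cell genes Klrb1c alone had one, at a density of 2.34 to 3.32, 1.92 to 4.90 and 2.75 to 2.82. Summed over the genes with a region, CD8 T cell markers (1 of 2 genes) had 6.61 to 7.31, 2.95 to 5.57 and 3.94 to 4.09, myeloid markers (3 of 5) 12.4 to 22.8, 15.6 to 18.1 and 18.9 to 20.98, lung epithelium markers (2 of 4) 17.8 to 24.7, 17.3 to 22.3 and 24.5 to 26.6, and endothelium markers (3 of 3) 31.8 to 35.0, 26.3 to 32.2 and 22.4 to 23.7. Their part in the results was not tested.

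In at least 1 population 37 of the 53 regions were accessible. LN IL-4+ cells had 17 of them, lung IL-4+ cells 18 and lung IFNγ+ cells 31, and 10 were shared by all 3. By mean over all libraries, the most accessible regions were CNS-22 and a region between Mdm1 and Il22 at -268.4 kb from the Ifng start (118172412 to 118172929). CNS-22 (118418860 to 118419502) had log2 densities of 5.70 and 6.36 in LN IL-4+ cells, 6.05, 5.62 and 5.90 in lung IL-4+ cells, and 6.24 and 6.24 in lung IFNγ+ cells. The LN IL-4+ libraries overlapped both lung populations, and the IFNγ+ libraries were above the lung IL-4+ libraries. The region at -268.4 kb had 5.90 and 6.30, 6.29, 5.72 and 5.45, and 5.69 and 5.54 in the same order. Next by its mean over all libraries was the -70.4 kb region (118370435 to 118370861), at the outer edge of the domain, with 4.66 and 4.89, 4.49, 3.94 and 3.75, and 4.67 and 4.58.

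**Figure D1:**
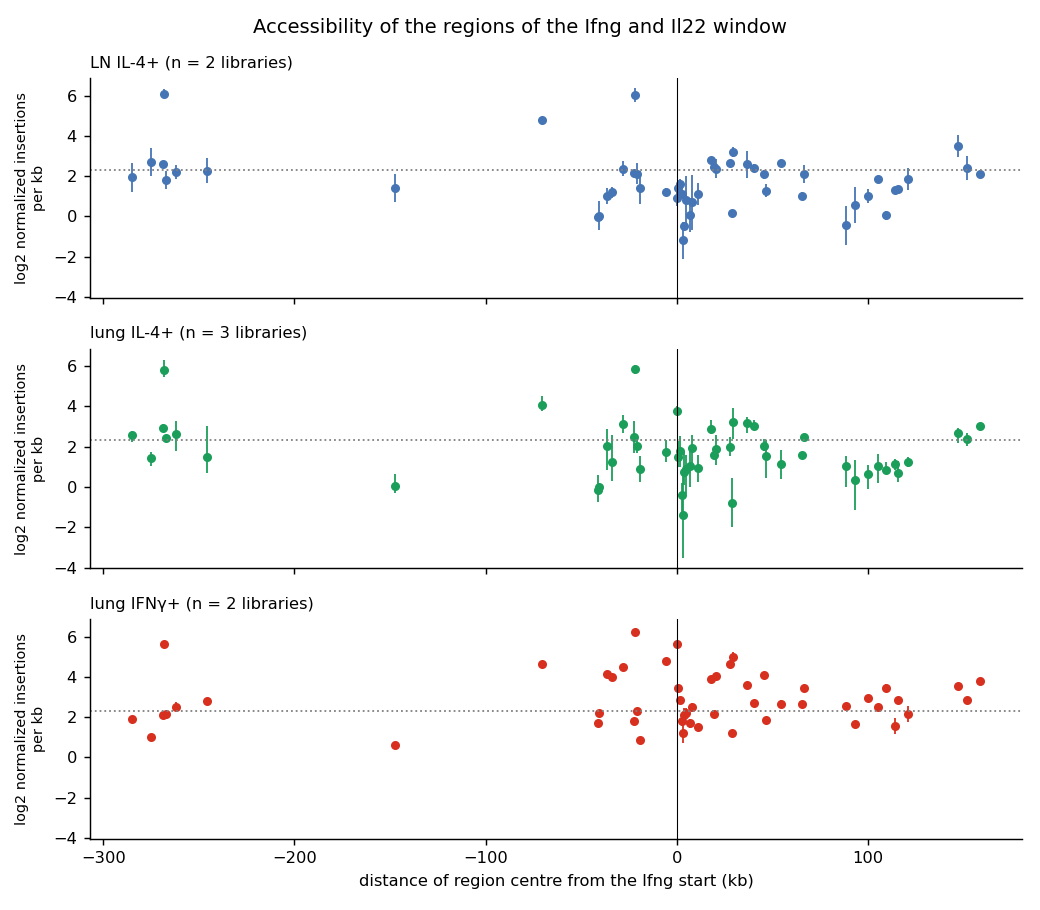
Log2 density (vertical axis, normalized insertions per kb) of the 53 regions against the distance of their centres from the Ifng start in kb, in 1 panel per population. Points are means, vertical lines run from the lowest to the highest library, and the dotted line marks a density of 5. CNS-22 at -21.9 kb and the region at -268.4 kb lie near 6 in all panels, while the start of Ifng is at 0.94 in LN IL-4+, 3.78 in lung IL-4+ and 5.64 in lung IFNγ+ cells.

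The start of Ifng lies in a single region (118440693 to 118441133), which differed between all 3 populations. Its log2 densities were 0.53 and 1.34 in LN IL-4+ cells, 3.81, 4.02 and 3.5 in lung IL-4+ cells and 5.60 and 5.69 in lung IFNγ+ cells. No 2 of the groups overlapped, and the lung IL-4+ cells lay between the other populations in every library. By rebuilt counts the region held at least 35 and 50, 238, 191 and 89, and 1304 and 2556 insertions. It ranked 42nd of the 53 regions in LN IL-4+ cells, 4th in lung IL-4+ cells and 2nd in lung IFNγ+ cells, and its mean log2 density was above that of 12.8%, 85.9% and 96.8% of all regions of the table.

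Differences were tested with limma over all 113820 regions, with 1 mean per population and Benjamini-Hochberg adjustment, and a region passed when its adjusted p was below 0.05 and its change was 3-fold or more. For the IL-4+ cells of both tissues, the Ifng start was the single region of the window that passed, higher in lung by 2.84 on the log2 scale (SE 0.29, limma adjusted p = 0.00274), or 7.15-fold. Over the whole table, 1.05% passed as higher in lung and 0.695% as higher in LN, where 0 of the 53 passed (6 had an unadjusted limma p below 0.05, 0 of them with a 3-fold change, and voom on the rebuilt counts gave 0). Within the narrow class the difference at the start was 3.23 and within the wide class 2.46. It remained past the threshold without any single library, at 2.43 to 3.24, where a population left with 1 library is assumed to vary like the others, but without a variance trend in limma its adjusted p was 0.0678. Without lung IL-4+ replicate 1, 1 region passed as higher in LN. The median log2 fold change of the 53 regions was -0.03, and that of all regions -0.03. Every lung IL-4+ library was above every LN library in 7 of the 53 regions and below in 9, against 13.6% of all regions above and 14.3% below.

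None of the 8 CNS regions passed the test between the IL-4+ populations, and in 6 of them the libraries of the 2 tissues overlapped. Of all regions, 1.05% passed as higher in lung and 0.695% as higher in LN. Every lung IL-4+ library was above every LN library in 13.6% of all regions and below in 14.3%, and the others overlapped. CNS-6 (118435290 to 118435904) had 1.00 and 1.43 in LN and 1.24, 2.35 and 1.55 in lung IL-4+ cells. CNS-34 (118406779 to 118407410) had 0.93 and 1.47 in LN and 2.59, 0.86 and 0.31 in lung. CNS+46 (118486683 to 118487140) had 1.87 and 2.3 in LN and 2.36, 2.00 and 1.80 in lung. In each of these 3 elements the LN and lung IL-4+ libraries overlapped. CNS+18 (118458450 to 118459185) also overlapped, with 2.83 and 2.74 against 3.32, 2.61 and 2.76. CNS+40 (118480481 to 118482296) was higher in every lung IL-4+ library (2.82, 3.31 and 2.91) than in LN (2.59 and 2.21), and CNS+54 (118495274 to 118495760) was lower in every one (1.82, 1.18 and 0.41 against 2.51 and 2.83), and neither passed the test.

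To set the start against its distal elements within a library, the mean log2 density of the 8 CNS regions was subtracted from that of the start-site region, a comparison chosen after the values were seen. CNS+29 (118469631 to 118470031) was the lowest of the 8 in every library, which lowers their mean. It had 0.16 and 0.16 in LN IL-4+, 0.43, -0.88 and -2.00 in lung IL-4+ and 1.27 and 1.15 in lung IFNγ+ cells. The start was below its elements in LN IL-4+ cells, by -1.67 and -1.09, and above them in lung IL-4+ cells, by 1.23, 1.88 and 1.80, and in lung IFNγ+ cells, by 1.83 and 2.06. Lung and LN IL-4+ cells differed by 3.02 (exact permutation test, two-sided, p = 0.1, which is the lowest possible with 3 and 2 libraries), and by 2.73 to 3.30 with 1 library left out. The lung IL-4+ and IFNγ+ libraries overlapped in this measure (difference -0.31, exact permutation p = 0.5). Lung IL-4+ replicate 1, its library of the wide class, was at 1.23, below both IFNγ+ libraries. Against CNS-6 alone the start was at -0.47 and -0.09 in LN IL-4+, 2.57, 1.67 and 1.95 in lung IL-4+ and 0.71 and 1.00 in lung IFNγ+ cells. By this measure the lung IL-4+ libraries were above both other populations, by 2.34 over LN IL-4+ and 1.21 over lung IFNγ+ cells (exact permutation p = 0.1 each). The choice of CNS-6 was also made after the values were seen, and the measure restates the separate differences at the start and at CNS-6. In lung IL-4+ cells the start of the gene was accessible while CNS-6, with a mean density of 3.46, was below the minimum of 5 used here.

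**Figure D2:**
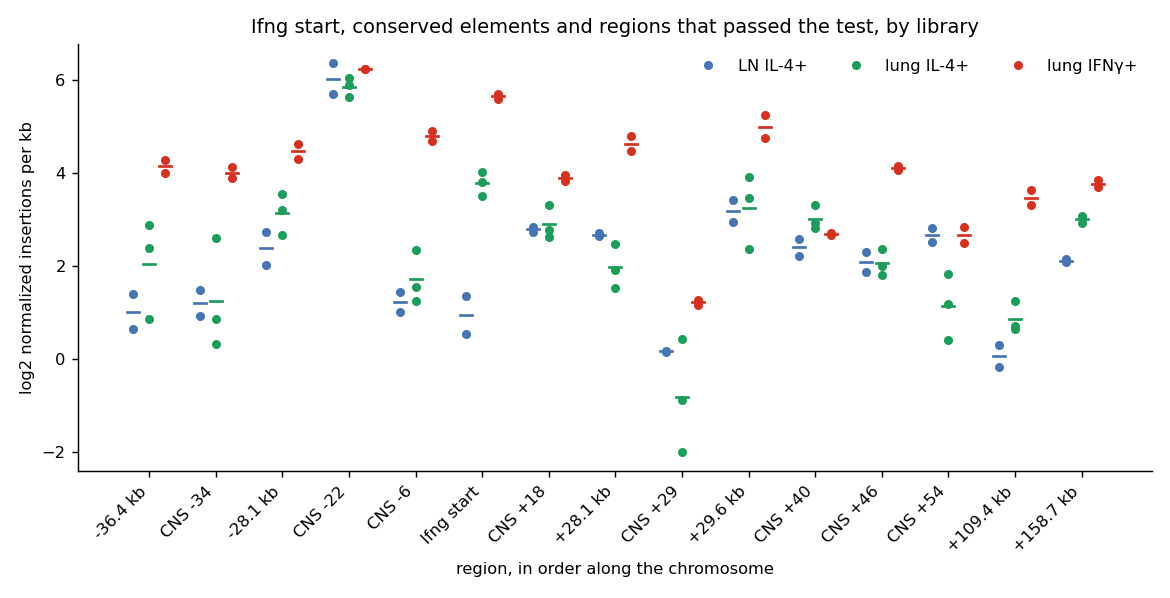
Log2 density (normalized insertions per kb) in each library of the Ifng start, the 8 CNS regions and the other regions that passed the test, in order along the chromosome. Points are libraries and short lines the means, with 3 lung IL-4+ libraries and 2 each of the LN IL-4+ and lung IFNγ+ populations. At the Ifng start the 3 populations form 3 separate steps, at CNS-6 the IFNγ+ libraries (4.89 and 4.69) stand above all IL-4+ libraries (1.00 to 2.35), and at CNS-22 all libraries lie between 5.62 and 6.36.

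Between the lung populations, 5 of the 53 regions passed as higher in IFNγ+ cells, where 0.387% of all regions did, and 0 passed as higher in IL-4+ cells, where 0.108% did (1 had an unadjusted limma p below 0.05, with less than a 3-fold change, and voom on the rebuilt counts gave 0). They were CNS-6, the Ifng start, the region at +28.1 kb, CNS+46 and the region at +109.4 kb. CNS-6 had 1.24, 2.35 and 1.55 in lung IL-4+ and 4.89 and 4.69 in lung IFNγ+ cells, so that IL-4+ minus IFNγ+ cells gave a log2 fold change of -3.08 (SE 0.38, limma adjusted p = 0.0155), or 8.45-fold. It was the region of the 5 with the largest fold change. The region at +28.1 kb (118468854 to 118469453) had 1.91, 2.48 and 1.53 against 4.79 and 4.47, a log2 fold change of -2.66 (SE 0.32, limma adjusted p = 0.0144). CNS+46 had 2.36, 2.00 and 1.80 against 4.15 and 4.06, a log2 fold change of -2.05 (SE 0.31, limma adjusted p = 0.0233). In both regions the IFNγ+ libraries lay above the IL-4+ libraries of lung and LN alike. The region at +109.4 kb (118550209 to 118550626), in an intron of Ifngas1, had 0.70, 0.63 and 1.25 against 3.64 and 3.30, a log2 fold change of -2.61 (SE 0.46, limma adjusted p = 0.0401). At the start itself the log2 fold change was -1.87 (SE 0.29, limma adjusted p = 0.0247), or 3.66-fold, the smallest of the 5.

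Against lung IL-4+ replicate 1 alone, the library of the wide class, these 5 log2 differences were -3.55 at CNS-6, -1.84 at the start, -2.72 at +28.1 kb, -1.75 at CNS+46 and -2.77 at +109.4 kb. The count of 5 fell to 0 without lung IL-4+ replicate 2 or 3, without either IFNγ+ library and without a variance trend, and rose to 10 when replicate 2 of the LN IL-4+ cells was left out and to 8 when replicate 1 of the lung IL-4+ cells was. Over all regions the calls higher in IFNγ+ cells were 441 in the main fit. They numbered 1 and 40 without lung IL-4+ replicate 2 or 3, 906 without its replicate 1 and 0 without a variance trend. The direction at each of the 5 was the same in all 17 other settings. Several of them, such as the low-density filter and no variance trend, leave the log2 fold change itself unchanged. Over the 53 regions the median log2 fold change was -1.04, where that of all regions was -0.01, and every IFNγ+ library was above every lung IL-4+ library in 34 and below in 4, against 21.2% of all regions above and 19.4% below. In the Ifng domain and beyond it, 34 of 45 regions showed this separation upward and 1 downward, at +40.3 kb, and of the 6 near Mdm1 0 showed it upward and 3 downward.

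When lung IFNγ+ were compared with LN IL-4+ cells, 10 of the 53 regions passed as higher in IFNγ+ cells, where 2.17% of all regions did, and 0 as lower, where 0.862% did (1 at an unadjusted limma p below 0.05 and 1 with voom on the rebuilt counts). The comparison shares its IFNγ+ libraries with the preceding one. The Ifng start had the largest difference, 4.71 on the log2 scale (SE 0.31, limma adjusted p = 5.72e-04), or 26.1-fold. CNS-6 was higher by 3.57 (SE 0.42, limma adjusted p = 0.00261) and the +109.4 kb region by 3.41 (SE 0.51, limma adjusted p = 0.00615). Upstream of the gene the other 3 were the region at -36.4 kb (118404428 to 118404871), CNS-34 and the region at -28.1 kb (118412781 to 118413210), higher by 3.13, 2.81 and 2.09.

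The region at -36.4 kb had 1.39 and 0.64 in LN IL-4+, 0.86, 2.38 and 2.89 in lung IL-4+ and 4.28 and 4.00 in lung IFNγ+ cells. CNS-34 had 4.13 and 3.88 in lung IFNγ+ cells against 0.31 to 2.59 in the IL-4+ libraries. The -28.1 kb region had 2.02 and 2.74 in LN IL-4+, 3.55, 3.21 and 2.67 in lung IL-4+ and 4.31 and 4.63 in lung IFNγ+ cells. All 3 were higher in the IFNγ+ libraries than in any IL-4+ library. Downstream, the region at +28.1 kb was higher than in LN IL-4+ cells by 1.96, the region at +29.6 kb (118470328 to 118471046) by 1.81, CNS+46 by 2.02 and the region at +158.7 kb (118599164 to 118600374), which crosses the end of the window, by 1.66. CNS+29, 401 bp long between the regions at +28.1 and +29.6 kb, was low, with 0.16 and 0.16, 0.43, -0.88 and -2.00, and 1.27 and 1.15. Its neighbours had 2.64 to 4.79 and 2.95 to 5.24 in the LN IL-4+ and IFNγ+ libraries.

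Against LN IL-4+ replicate 2 alone, the library of the wide class, the 10 log2 differences were between 1.57 and 4.30. The count of 10 fell to 1, the Ifng start, without either IFNγ+ library, and to 5 without a variance trend. The Ifng start passed in all 17 other settings, CNS-6 in 15 and the other 8 regions in 9 to 14. Calls higher in IFNγ+ cells over all regions numbered 2469 in the main fit and 1051 without a variance trend. Over the 53 regions the median log2 fold change was 1.10, where that of all regions was -0.03, and every IFNγ+ library was above every LN IL-4+ library in 32 and below in 6, against 26.5% of all regions above and 27.2% below.

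**Figure D3:**
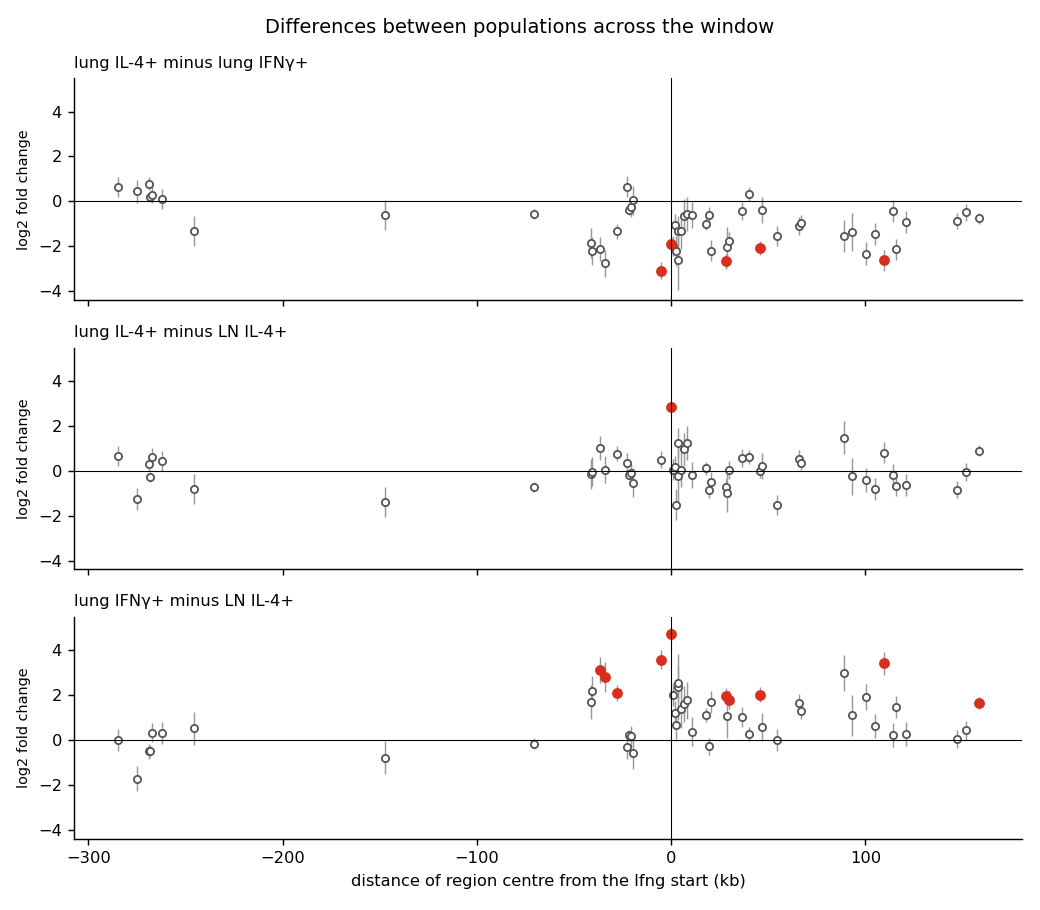
Log2 fold changes of the 53 regions against the distance of their centres from the Ifng start in kb, 1 panel per comparison. Vertical lines are limma standard errors, and filled red points passed the test. There are 5 filled points in the upper panel, 1 in the middle panel, at the Ifng start, and 10 in the lower panel, all of them between -36.4 and 158.7 kb.

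Beyond the domain lay 7 regions of Ifngas1, a non-coding RNA gene known to enhance Ifng expression. Their mean densities were 0.91 to 3.65 in LN IL-4+ and 1.57 to 2.28 in lung IL-4+ cells, where 0 of the 7 were accessible, and 3.04 to 11.2 in lung IFNγ+ cells, where 5 were. Inside the domain, the Ifngas1 intron region at +66.8 kb had mean densities of 4.53, 5.57 and 10.8 in the same order. The intron region at +65.7 kb had 2.05, 2.95 and 6.29. The region at the Ifngas1 start (118556447 to 118556878) had log2 densities of 1.48 and 1.23 in LN IL-4+, 1.27, 0.59 and 0.26 in lung IL-4+ and 2.84 and 2.83 in lung IFNγ+ cells. The IFNγ+ libraries were higher than all others there, but the region did not pass the test in any comparison. The longest region over the gene body of Ifng, from 118441384 to 118442444, had 1.81 and 1.03, 1.12, 2.26 and 1.01, and 3.46 and 3.43 in the same order, with both IFNγ+ libraries above the rest. It also overlaps the start of Gm49751, an annotated gene within Ifng.

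Around Il22 there was little to measure. No region lay within 2 kb of its start, and none between 118195562 and 118293261, a stretch of 97.7 kb that holds the whole gene. The single region within 10 kb of the gene (118195006 to 118195561), centred at -9.7 kb from its start, had log2 densities of 1.65 and 2.89 in LN IL-4+, 3.01, 0.69 and 0.75 in lung IL-4+ and 2.74 and 2.85 in lung IFNγ+ cells. The populations overlapped, and the 4 libraries of the wide class were all above the 3 of the narrow class. A separation of wide above narrow occurred in 6 of the 53 regions and in 13.5% of all regions. In normalized insertions the region had 2.94 ± 1.69 (SD, n = 2), 2.1 ± 2.06 (SD, n = 3) and 3.86 ± 0.20 (SD, n = 2), with exact permutation p from 0.4 to 1.0 in the 3 comparisons.

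Much of this stretch is repeated sequence, and its part in the lack of regions there was not tested. The authors left out reads with a mapping quality under 10, and of the 50-base windows in the stretch without regions 32.1% occurred at 1 place in the genome's chromosomes, compared with 91.6% in the Ifng domain. Over Il22 itself the share was 70.3% and within 1 kb of its start 79.9%, against 99.8% and 100% at Ifng. Il22 and Iltifb with 2 kb on each side aligned over blocks of 2694, 2211 and 1376 columns at 94.1%, 95.2% and 97.7% identity. The region in an Iltifb intron (118293262 to 118293826) had the lowest share of unique windows of the 53 regions, 69.8%, and log2 densities of 0.73 and 2.1, 0.62, -0.29 and -0.22, and 0.61 and 0.66. Of the 53 regions, 45 were unique throughout and 50 in at least 90% of windows, among them all 10 that passed the test.

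Summed over its 34 regions, the Ifng domain had 120.3 and 144.6 normalized insertions in LN IL-4+ cells, 142.2, 143.3 and 127.4 in lung IL-4+ cells and 269.0 and 285.7 in lung IFNγ+ cells. The IL-4+ populations overlapped, and both IFNγ+ libraries were above all others. The means were 132.5 ± 17.2 (SD, n = 2), 137.6 ± 8.84 (SD, n = 3) and 277.3 ± 11.8 (SD, n = 2). Lung IL-4+ minus lung IFNγ+ was -1.01 on the log2 scale (exact two-sided permutation p = 0.1, adjusted 0.5 over 15 tests of sums), and lung IL-4+ minus LN IL-4+ was 0.06 (exact permutation p = 0.7, adjusted 0.875). Lung IFNγ+ exceeded LN IL-4+ cells 2.1-fold in the domain (exact permutation p = 0.333, the lowest possible with 2 and 2 libraries, adjusted 0.714). Within the wide class, lung IL-4+ minus lung IFNγ+ was -0.96 on the log2 scale and lung IFNγ+ minus LN IL-4+ was 0.94. The Th2 cytokine locus, from Il4 to Il5, holds the gene whose reporter the IL-4+ cells were sorted on. Its mean sums were 212.7 in LN IL-4+, 329.7 in lung IL-4+ and 147.9 in lung IFNγ+ cells. Ratios of the Ifng domain to it within a library were 0.64 ± 0.17, 0.42 ± 0.07 and 1.88 ± 0.20 in the same order. Between the IL-4+ populations the sums differed more in the Th2 locus than in the Ifng domain. No 2 of the groups overlapped in the ratio, but the closest LN and lung IL-4+ libraries were at 0.512 and 0.503. The exact permutation p was 0.1 between the lung populations and 0.2 between the IL-4+ populations (adjusted 0.5 and 0.714).

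**Figure D4:**
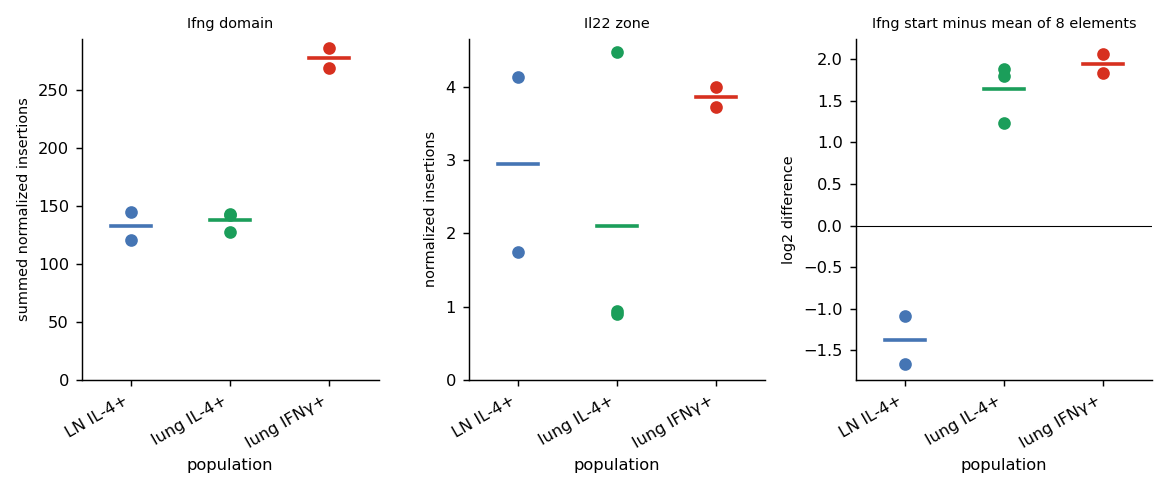
Normalized insertions summed over the Ifng domain (left) and over the single region of the Il22 zone (middle), and the log2 density of the Ifng start minus the mean of the 8 CNS regions (right), by population. Points are libraries and lines are means (n = 2, 3 and 2). The domain is at 120.3 to 144.6 in all IL-4+ libraries and at 269.0 and 285.7 in the IFNγ+ libraries, the Il22 zone overlaps between populations, and in the right panel the LN IL-4+ libraries alone are below 0.

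Among 12448 protein-coding genes with a start-site region accessible in some population, the 5 whose start followed the Ifng start most closely over the 7 libraries were Glipr1 (Pearson's r = 0.998), Pilrb1 (0.990), Serpina3g (0.985), Ctla2b (0.983) and Wdr82 (0.980). These are descriptions over 7 libraries that share the normalization. The sizes differed, since the start of Wdr82 went from 5.29 to 5.72 over the libraries and that of Glipr1 from 3.70 to 4.75, while Ctla2b went from 3.37 to 6.51. Il22 has no start-site region, so none was compared with it.

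Of 16 genes of the interferon gamma and Th1 pathway 15 had a start-site region, Stat4 being without one. In lung IFNγ+ against LN IL-4+ cells 4 passed as higher and 0 as lower, where 2.17% and 0.862% of all regions did, with a median log2 fold change of 0.12 over the 15. These were the receptor chains Il12rb2, for IL-12, by 1.89 (SE 0.33, limma adjusted p = 0.0124) and Il18r1 and Il18rap, for IL-18, by 1.65 and 3.07, and the chemokine receptor Cxcr3 by 2.11. Against lung IFNγ+ cells, Il12rb2 and Cxcr3 were lower in lung IL-4+ cells, by -2.00 and -2.01 on the log2 scale (limma adjusted p = 0.0241 and 0.0232). Between the IL-4+ populations 0 of 15 passed with limma, where 1.05% of all regions passed as higher in lung and 0.695% as higher in LN. At an unadjusted limma p below 0.05 were 3 of the 15. Of all 113820 regions, 10043 were higher in lung and 8395 higher in LN at that p. Il18rap had 0.04 and 2.99 in LN IL-4+, 4.04, 3.94 and 3.55 in lung IL-4+ and 4.57 and 4.59 in lung IFNγ+ cells. Of its LN libraries the one at 2.99 was of the wide class. The start of Tbx21, which encodes T-bet, had 2.99 and 1.37 in LN IL-4+, 1.70, 3.04 and 2.52 in lung IL-4+ and 2.38 and 2.43 in lung IFNγ+ cells. The means were 2.18, 2.42 and 2.41. Of the IL-4+ libraries, those of the wide class (1.37 and 1.70) were below both IFNγ+ libraries and those of the narrow class above them. For the receptor gene Ifngr1 the mean log2 densities were 5.91, 5.93 and 6.03.

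Of 11 genes of the IL-22 pathway 10 had a start-site region, Il22ra1 being without one, and 0 passed with limma in any comparison (2, 0 and 1 had an unadjusted p below 0.05 in lung IFNγ+ against LN IL-4+ cells, between the IL-4+ populations and between the lung populations). The median log2 fold changes over the 10 were 0.70 for lung IFNγ+ over LN IL-4+, -0.012 for lung over LN IL-4+ and -0.13 between the lung populations, IL-4+ minus IFNγ+. In each population 5 of the 10 were accessible. For lung IFNγ+ over LN IL-4+, Il10rb, Tyk2, Stat3 and Ahr had -0.20, -0.24, -0.21 and -0.03, and Il22ra2 had 1.2. Il23r, Il17a, Ccr6, Il1r1 and Il17f had 1.69, 1.17, 1.12, 0.78 and 0.62, at mean log2 densities of at most 2.23 in each population. Il22ra2, which encodes a soluble binding protein of IL-22, had 2.14 and 2.8, 2.51, 1.13 and 2.14, and 3.56 and 3.79. The start of Ahr, whose product induces Il22, had mean log2 densities of 5.24 in LN IL-4+, 5.06 in lung IL-4+ and 5.21 in lung IFNγ+ cells.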

How the data were processed

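Lung and lymph node CD4+ T cells of 3 populations were profiled by ATAC-seq, and the labels' tissue and reporter gave each of the 7 libraries its group. The authors trimmed adapters, mapped reads to GRCm38 with Bowtie2 2.3.2, removed reads of low mapping quality, called summits per replicate with MACS2 2.1.1, merged regions over replicates and counted insertions, so that the deposited values are log2 normalized insertions per kb, scaled to the library total, made with voom (limma 3.38.3, R 3.5.1). The sorted values nearly coincide between libraries, as quantile normalization leaves them, a step not given in the sources used here. Regions tied within a library share a count, and the rank of each distinct value gave a lower bound on its insertions. Intervals are 1-based.

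Here limma 3.58.1 in R 4.3.3 was fitted to the deposited log2 values of all regions, without a filter or pseudocount, with 1 mean per population over all 7 libraries and eBayes with a variance trend. Locus sums were added as antilog density times length and compared on the log2 scale by exact two-sided permutation of libraries in Python 3.11.15 (numpy 2.4.6, scipy 1.17.1, pandas 2.3.3). Figures were drawn with matplotlib 3.10.9. Genes are from GENCODE M21 and sequences from GRCm38.p6. The limma procedure was run on simulated data with independent noise between libraries and without the spread classes, so it does not cover that feature of these libraries. Regions named in the text are the start-site region of Ifng, the region within 2 kb of each CNS distance, every region that passed in any comparison, the region within 10 kb of Il22 and the 3 of highest mean density. Those in Ifngas1, the Ifng body and Iltifb were named after their values were seen. The members, lists, elements and motifs were chosen with earlier results of these data known, and 1 gene of the IL-22 list and 1 motif are not reported here. Alternatives were another log scale, a low-density filter, median centring, fits of 2 populations, a replicate block, the spread class as a covariate, array weights, voom on the rebuilt counts, no minimum fold, no variance trend, other flanks and summaries of the sums, and each library left out. The setting without a minimum fold is the main fit at a looser cut, so every region that passed in the main fit passes there too. Counting error and replicate number limit the precision, and reads behind the table were not analysed here.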

Additional observations from a re-analysis of the deposited data

How the results depend on the processing

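The count of regions higher in lung IFNγ+ than in lung IL-4+ cells was 5 and became 9 with log2(density + 1), 10 with the spread class as a covariate, 18 with array weights, 10 with 2 populations only and 0 without a variance trend, and it ranged from 0 to 10 with 1 library left out. The count in favour of lung among IL-4+ cells was 1 and became 0 without a variance trend, and the count higher in LN ranged from 0 to 1 with 1 library left out. For lung IFNγ+ over LN IL-4+ cells the count was 10 and became 17 with the spread class and 5 without a variance trend, with a range of 1 to 14, and that higher in LN became 1 with the spread class and 1 with voom on the rebuilt counts. Counts over all regions also moved. Higher in lung IFNγ+ than in lung IL-4+ cells were 441 in the main fit, 608 with log2(density + 1) and 746 with the spread class. Array weights gave 3440, 2 populations only 901 and no variance trend 0. Higher in lung among IL-4+ cells were 1191, and 0 without a variance trend. For lung IFNγ+ over LN IL-4+ cells there were 2469, 3241 with the spread class and 1051 without a variance trend. Whether equal replicate numbers pair the libraries could not be decided. Same-numbered libraries deviated from their population means with correlations of -0.542 to 0.057. In a population of 2 libraries both deviate by equal and opposite amounts, so the signs of these correlations are tied. With a replicate block the counts were 0, 0 and 2 in the window and 0, 0 and 468 over all regions. The voom fit shifted the median log2 fold change of all regions to 0.43, 0.09 and -0.25 and turned the split of all calls between the lung populations from 123 higher in IL-4+ and 441 higher in IFNγ+ cells to 547 and 360, with 0 and 5 calls in the window, where the +109.4 kb region was not among the 5 (limma-voom adjusted p = 0.126). The small log2 difference of the window between lung and LN IL-4+ cells reversed to -0.0173 with median centring and -0.0353 in the wide class, and ranged from -0.15 to 0.17 with 1 library left out, and that of the Ifng domain reversed to -0.0242 in the wide class, with a range of -0.0735 to 0.19. In the Il22 zone the wide class reversed the 3 differences to 0.21, 0.11 and -0.0992, rebuilt insertions gave -0.0456 for lung IFNγ+ over LN IL-4+, and leaving out LN IL-4+ replicate 1 gave -0.0992 in a range up to 1.143. The ratio of the Ifng domain to the Il22 zone reversed between the lung populations to -0.52 with rebuilt insertions and -1.18 in the wide class, with a range of -0.13 to 1.04, and between the IL-4+ populations to -0.14 in the wide class. The causes were not tested. The Ifng domain excess of IFNγ+ cells and its ratio to the Th2 locus kept their directions in all settings. With 2 or 3 libraries a population, sums could not reach p below 0.1.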
